A study of Mus musculus with 8 samples.

Results

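The 9 B lineage specification genes Ebf1, Pax5, Cd79a, Cd79b, Blnk, Igll1, Vpreb3, Pou2af1 and Ly86 were followed through 2 progenitor populations of mouse bone marrow, with and without the transcription factor Nfil3. They were chosen by symbol, as the probe sets (groups of array probes for one transcript) annotated to one of these symbols and to no other gene. By that rule 8 of the 9 genes were measured, with 10 probe sets, of 17097 genes with such a probe set. Igll1 had no probe set of its own symbol alone and was not analysed here. RNA of sorted, lineage-depleted marrow cells was hybridised to 8 one-colour Affymetrix arrays, 2 in each of 4 groups. The groups cross genotype, Nfil3 knockout (KO) or wild type (WT), with population, all lymphoid progenitors (ALP) or prepro NK cells (preproNK), which are progenitors on the way to natural killer (NK) cells. Animals of all 4 groups carried the ID2-GFP reporter, a fluorescent read-out of the Id2 gene. The labels give neither the animals' age nor the number of mice behind a sample, and replicates 1 and 2 were processed on 2 dates.

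B lineage specification starts in lymphoid progenitors of the marrow, where Ebf1 and then Pax5 switch on the genes of the B cell programme and restrain those of other lineages. Vpreb3 binds immunoglobulin chains during their assembly. Among the genes they control are parts of the pre-B cell receptor: Igll1 is a component of the surrogate light chain, and Cd79a and Cd79b are the signalling chains of the receptor. Blnk is the adaptor that carries the receptor's signal from the kinase Syk to downstream enzymes, Pou2af1 is a coactivator that works with the octamer-binding proteins of B cells, and Ly86 is the secreted partner of the Toll-like receptor homologue Cd180.

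The promoters were searched for the letters bound by factors of the B programme. These were CCCNNGGG (a form bound by Ebf1), CAGGTG (an E-box bound by Tcf3), ATGCAAAT (the octamer, through which Pou2af1 acts) and TTANNTAA (a form bound by Nfil3 and related bZIP factors), on both strands of the 250 bases before the start. RefSeq gave 9 such windows for 8 of the 9 genes, Cd79b being the one without, all in build GRCm38.p6. The octamer was found in Blnk and Vpreb3, at bases -130 to -123 and -45 to -38 from the start, against 1.60% of 32851 promoter windows of this length. CAGGTG was found in Cd79a, Blnk and Igll1, against 17.2% of windows, and CCCNNGGG in Igll1, against 11.8%. TTANNTAA was in 0 of the 9 windows, and in 5.43% of all windows. No searched motif overlapped another in these windows. The promoters of Blnk (chr19:40994222-40994471, minus strand), Vpreb3 (chr10:75948050-75948299, plus strand) and Cd79a (chr7:24897247-24897496, plus strand) are printed because Blnk differed most between the populations while the other two did not pass the test. Capitals mark the octamer and the E-box, which here read ATTTGCAT and, in Blnk, CACCTG where they lie on the other strand. A match describes the letters only.
Blnk: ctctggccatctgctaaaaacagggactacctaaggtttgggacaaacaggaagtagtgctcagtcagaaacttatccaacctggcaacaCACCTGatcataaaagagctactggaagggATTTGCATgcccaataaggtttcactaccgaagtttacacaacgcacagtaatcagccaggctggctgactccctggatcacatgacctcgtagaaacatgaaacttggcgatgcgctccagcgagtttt
Vpreb3: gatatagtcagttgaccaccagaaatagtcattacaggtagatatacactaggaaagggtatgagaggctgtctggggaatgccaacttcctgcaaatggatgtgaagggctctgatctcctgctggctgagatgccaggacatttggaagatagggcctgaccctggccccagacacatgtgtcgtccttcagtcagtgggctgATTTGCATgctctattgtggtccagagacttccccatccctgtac
Cd79a: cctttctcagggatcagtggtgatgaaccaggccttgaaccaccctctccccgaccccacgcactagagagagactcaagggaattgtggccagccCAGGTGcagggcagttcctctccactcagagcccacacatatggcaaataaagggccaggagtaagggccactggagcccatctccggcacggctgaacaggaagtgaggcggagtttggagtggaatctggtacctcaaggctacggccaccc

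Expression is given as a level, the deposited log2 value minus the median of the 45141 probe sets on that array. A level of 0 is the array median, which serves as a floor since the files carry no detection calls. Levels are compared between arrays for 1 gene, never between genes, whose probes differ. Where the arrays of groups are said not to overlap, the share of all tested genes that did so was not counted. A gene was tested with limma if its level was above 0 on at least 2 of the 8 arrays (11583 genes), and called at a Benjamini-Hochberg adjusted p under 0.05. Of the 8 measured members 6 met this, and Ebf1 and Pou2af1 did not. The spread of values over all probe sets differed between arrays. It was narrowest on WT preproNK replicate 2 (SD 1.39) and WT ALP replicate 2 (SD 1.55), against 1.66 to 1.88 on the other 6. On WT preproNK replicate 2, 728 tested genes lay at least 3 above the median, against 1551 to 3306 on the others, and its correlation with WT ALP replicate 2 (0.747) was above that with its own group (0.621). The targeted gene, Nfil3, had levels of 2.92 and 1.37 in WT ALP, -0.52 and 0.14 in KO ALP, 0.73 and 0.47 in WT preproNK, and -0.14 and -0.44 in KO preproNK. In both populations every KO array lay below every WT array, though neither difference passed limma's adjusted test (KO minus WT -2.33, SE 0.55, adjusted p = 0.999 in ALP, and -0.89, SE 0.55, adjusted p = 0.611 in preproNK). The labels do not say whether its probes lie in the deleted part.

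The transcription factors of the set were low in every group. Ebf1, the factor that opens the B programme, had levels of -0.48 and -0.21 in WT ALP, -0.40 and -0.47 in KO ALP, -1.05 and 0.04 in WT preproNK, and -0.94 and -0.98 in KO preproNK by its brightest probe set. It was above the median on 1 array, WT preproNK replicate 2, and its other probe sets were below it on all 8. Pax5, which commits cells to the B lineage, had levels of -0.67 and 0.06 in WT ALP, -0.69 and -0.33 in KO ALP, -0.75 and 0.42 in WT preproNK, and -0.93 and -0.85 in KO preproNK. It was above the median on both narrow-range WT arrays alone and under it on the other 6. Pou2af1 was below the median on all 8 arrays, from -1.57 on WT ALP replicate 1 to -0.57 on WT preproNK replicate 2. Levels at or under the floor have no order, so no fold is given for Ebf1, Pax5 and Pou2af1.

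Vpreb3 and Cd79a were above the array median on all 8 arrays. Cd79a lay close to that floor on replicate 1 of WT ALP, KO ALP and WT preproNK (0.06 to 0.14). Vpreb3 had levels of 1.66 and 1.73 in WT ALP, 1.14 and 1.59 in KO ALP, 1.35 and 2.01 in WT preproNK, and 1.09 and 1.39 in KO preproNK. The KO arrays lay below the WT arrays in ALP and overlapped them in preproNK, with differences of -0.33 and -0.44 (SE 0.38 each, adjusted p = 0.999 and 0.626 by limma). Cd79a had levels of 0.08 and 0.77 in WT ALP, 0.06 and 0.60 in KO ALP, 0.14 and 1.61 in WT preproNK, and 0.34 and 0.57 in KO preproNK. Replicate 2 was above replicate 1 in each of the 4 groups, and all groups overlapped. Ebf1, Pax5, Pou2af1, Cd79a and Vpreb3 each had their highest level on WT preproNK replicate 2, the array with the narrowest spread, and the part of that array's spread in these values was not tested.

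Cd79b, the partner chain of Cd79a, had levels of 2.39 and 2.08 in WT ALP, 2.71 and 2.33 in KO ALP, 1.71 and 0.68 in WT preproNK, and 2.92 and 2.82 in KO preproNK. The WT preproNK arrays were the lowest of the 8 and the KO preproNK arrays the highest, while the ALP groups overlapped.

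**Figure D1:**
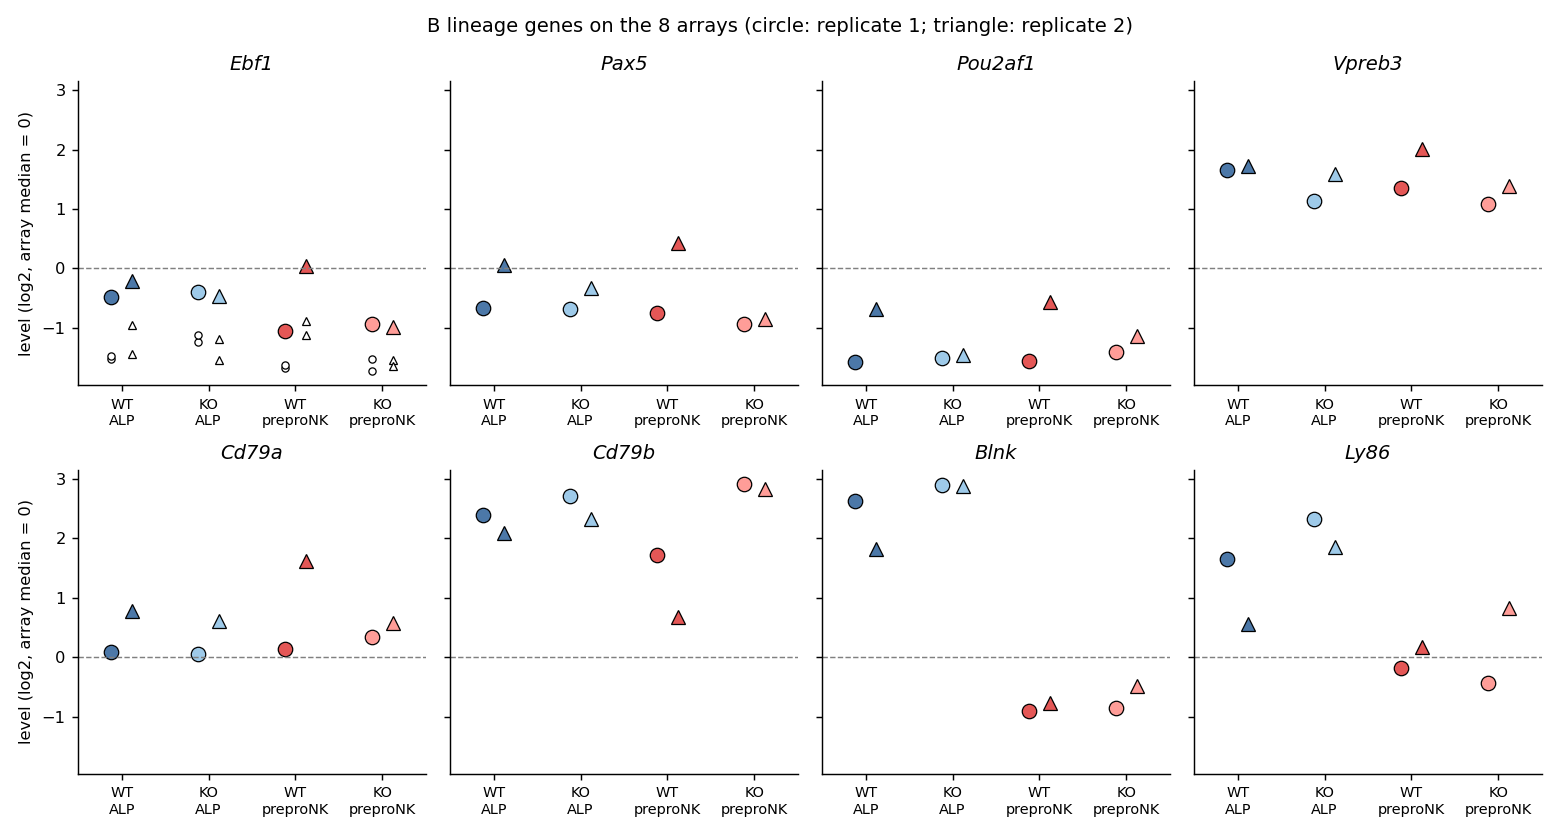
Level of each measured gene (log2, relative to the array median, dashed at 0) on each of the 8 arrays by group, with replicate 1 as circles and replicate 2 as triangles; small open symbols in the Ebf1 panel are its other probe sets. Blnk lay between 1.82 and 2.90 on the ALP arrays and between -0.91 and -0.48 on the preproNK arrays, while Ebf1 and Pou2af1 stayed near or under the median.

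Blnk was high in ALP and under the array median in preproNK, in both genotypes. Its levels were 2.62 and 1.82 in WT ALP, 2.90 and 2.88 in KO ALP, -0.91 and -0.78 in WT preproNK, and -0.85 and -0.48 in KO preproNK. All 4 ALP arrays were above all 4 preproNK arrays, and every preproNK array was under the floor. Blnk passed the filter on low values through its ALP arrays, so that a difference was built into its being tested. Over both genotypes Blnk was lower in preproNK by a log2 difference of -3.31 (SE 0.27, 95% confidence interval -3.96 to -2.67, adjusted p = 0.00435 by limma), at least 5.88-fold when the dim arrays are set to their median. Within KO it was lower by -3.56 (SE 0.39, adjusted p = 0.0157), at least 7.42-fold. Within WT the difference was -3.07 (SE 0.39) and at least 4.67-fold, and did not pass the test (adjusted p = 0.0905). The difference between the genotypes in this step was -0.49 (SE 0.55, adjusted p = 1 by limma). The call over both genotypes was lost without KO preproNK replicate 1 (adjusted p = 0.0558), and the call within KO without any 1 of the 4 KO arrays (adjusted p = 0.171 to 0.271). Within WT Blnk passed without either WT preproNK array (adjusted p = 0.0277 in each case), where 6.46% of tested genes passed without replicate 1 and 1.20% without replicate 2. The lone array left in the group is then assumed to vary like the other groups. In RNA of a sorted population, fewer cells of a type and less RNA per cell cannot be told apart.

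Ly86 was also lower in preproNK than in ALP within each genotype, but with overlap across the genotypes. Its levels were 1.65 and 0.55 in WT ALP, 2.32 and 1.86 in KO ALP, -0.18 and 0.17 in WT preproNK, and -0.43 and 0.83 in KO preproNK. The ALP and preproNK arrays did not overlap within either genotype, but KO preproNK replicate 2 was above WT ALP replicate 2. The stage difference was -1.50 over both genotypes (SE 0.39, adjusted p = 0.124 by limma), -1.11 in WT (SE 0.56, adjusted p = 0.837) and -1.89 in KO (SE 0.56, adjusted p = 0.255), none past the threshold. With the dim arrays set to their median Ly86 was at least 2.54-fold, 2.03-fold and 3.19-fold lower in preproNK. The WT difference was -0.56 without WT ALP replicate 1 and -1.66 without WT ALP replicate 2, and the KO difference -1.26 without KO preproNK replicate 1 and -2.52 without KO preproNK replicate 2. Without the 2 narrow-range WT arrays, both numbered replicate 2, Ly86 passed over both genotypes (-1.86, adjusted p = 0.00687), where 9.91% of tested genes passed. It also passed within KO, where the difference itself was the same (-1.89, adjusted p = 0.0172) and 7.72% of genes passed.

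Blnk was thus the 1 member of the 6 tested that was called for the preproNK against ALP difference over both genotypes, where 2.27% of tested genes were called and 1.09% were called lower. In KO it was again the 1 member called, where 1.00% of genes were called and 0.224% were called lower. In WT 0 members were called by limma, where 0.0259% of genes were, and 2 of the 6 had an unadjusted p under 0.05, against 799 of the 11583 tested genes. Blocking on the replicate number, Blnk was called over both genotypes (5.58% of genes called) and in KO (2.52%), and 0 members were called by limma in WT (0.112%). The median difference of the 6 over both genotypes was -0.23, against -0.06 for all tested genes. These 3 comparisons share arrays and are not independent.

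Between KO and WT 0 members were called by limma in ALP, where 0% of tested genes were called, and 0 in preproNK, again with 0% of genes called. At an unadjusted p under 0.05 there were 0 members of 5 genes in ALP, and 1 member, Cd79b, of 596 genes in preproNK. Cd79b was 3.20-fold higher in KO preproNK than in WT preproNK, a log2 difference of 1.68 (SE 0.43, 95% confidence interval 0.67 to 2.69, adjusted p = 0.608 by limma). It was higher in both replicate pairs, by 1.22 within replicate 1 and 2.14 within replicate 2. On the same arrays T cell markers had a median difference of 2.76 (8 of 8 tested above 0) and NK markers one of 2.01 (8 of 9), and their part in the Cd79b difference was not tested. The median of all tested genes in this comparison was 0.30, and 0.15 with the values as deposited, so that more genes lay above 0 than below it. Without WT preproNK replicate 2, the narrow-range array, Cd79b differed by 1.17 (adjusted p = 1). Without WT preproNK replicate 1 it differed by 2.19 and passed (adjusted p = 0.016), where 22.8% of tested genes passed too.

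In ALP the KO minus WT differences were 0.99 for Ly86 (SE 0.56), 0.67 for Blnk (SE 0.39) and 0.29 for Cd79b (SE 0.43), each with an adjusted p of 0.999 by limma. For Ly86 both KO arrays were above both WT arrays, and so they were for Blnk. The median of all tested genes in this comparison was 0.14, and the share of genes separated in this way was not counted. Leaving out WT ALP replicate 2, the lower array of its group for both genes, gave 0.44 for Ly86 and 0.27 for Blnk. In preproNK, Cd79a differed by -0.42 (SE 0.55), with the WT group spread widely. The interaction, the KO effect in preproNK minus that in ALP, called 0 members by limma, where 0% of tested genes were called, and 0 of the 6 had an unadjusted p under 0.05, against 164 of all tested genes.

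**Figure D2:**
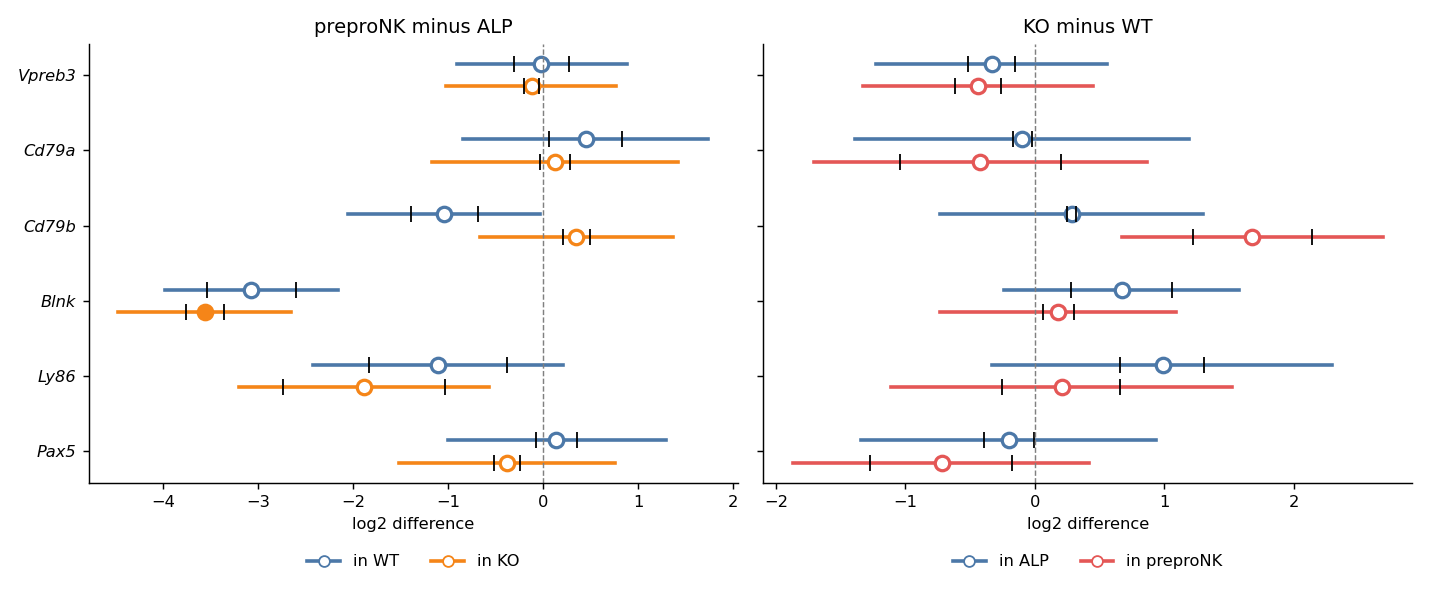
Log2 differences of the 6 tested members, preproNK minus ALP on the left in WT and KO, and KO minus WT on the right in ALP and preproNK; circles are limma's estimates with 95% confidence intervals, filled where the adjusted p was under 0.05, and black ticks are the differences within replicate 1 and within replicate 2. Blnk lay at -3.07 in WT and -3.56 in KO, the latter filled, and Cd79b in preproNK at 1.68 with both ticks above 0.

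The regulators upstream of B specification were examined next, since Ebf1 is switched on by factors already present in lymphoid progenitors. This list, like those below, was chosen with earlier results of these data known, so its counts are a description. Over both genotypes 4 of 18 tested (of 19 listed) fell from ALP to preproNK and 0 rose, where 1.09% of all tested genes fell and 1.18% rose, with a median of -0.46 against -0.06 for all tested genes. Bcl11a, a zinc finger factor needed for lymphoid development, had levels of 4.37 to 6.11 on the ALP arrays and 0.38 to 1.27 on the preproNK arrays, and fell by 4.44 (SE 0.41, adjusted p = 0.00661 by limma). Sox4, an HMG box factor needed for early B cells, had levels of 4.49 to 5.21 and of 0.85 to 1.17, and fell by 3.83 (SE 0.27, adjusted p = 0.00292). Mef2c fell by 2.15 (SE 0.31) and Erg by 2.10 (SE 0.34), both transcription factors of early progenitors. The arrays of both populations did not overlap for any of these genes. The count moved with the number of calls over all genes. Without any 1 ALP or KO preproNK array 1 to 3 fell, Sox4 in every case, where 13 to 116 of all tested genes were called. Without WT preproNK replicate 1, 6 fell, where 946 genes were called, and without WT preproNK replicate 2, 6 fell and 1 rose, where 673 were called.

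Genes downstream of Ebf1 and Pax5 went both ways. Of the 19 tested (of 27 listed) 1 rose and 1 fell over both genotypes, with a median of -0.10. Of all tested genes 1.18% rose and 1.09% fell. Ikzf3, a zinc finger factor of lymphocytes and not of B cells alone, had levels of 0.04 to 0.52 in ALP and of 2.39 to 6.66 in preproNK, and rose by 5.31 (SE 0.80, adjusted p = 0.0243 by limma). Its lowest preproNK level was that of WT preproNK replicate 2. Irf8, which also acts in myeloid and dendritic cells, had levels of 4.69 to 5.71 in ALP and of 1.73 to 3.49 in preproNK, and fell by 3.02 (SE 0.37, adjusted p = 0.0138). Without WT ALP replicate 1, either KO ALP array or KO preproNK replicate 1, 0 genes of this list were called by limma. Without either WT preproNK array more genes of this list were called, as were more of all tested genes.

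Around Blnk, the kinases and enzymes of pre-B receptor signalling split. Of 17 tested (of 18 listed) 3 rose and 1 fell over both genotypes, with a median of -0.18. Of all tested genes 1.18% rose and 1.09% fell. Syk, the kinase that acts on Blnk, had levels of 4.45 to 5.22 in ALP and of 1.04 to 2.53 in preproNK, and fell by 3.06 (SE 0.40, adjusted p = 0.0161 by limma). Blk, a kinase of the Src family, had levels of 1.59 to 1.90 in ALP, of 4.30 and 2.37 in WT preproNK and of 6.53 and 6.12 in KO preproNK. It rose by 3.13 (SE 0.43, adjusted p = 0.0185). Rasgrp1, an activator of Ras best known from T cells, rose by 4.53 (SE 0.46), and Prkcb, a protein kinase C isoform, by 2.66 (SE 0.43). Without any 1 of the 4 KO arrays, 0 genes of this list were called by limma, and without WT ALP replicate 1 or 2, 1 and 2 were. Of the partners of Ly86, 2 of 3 were tested and 0 called by limma. Cd180 differed by -1.46 (SE 0.55, adjusted p = 0.291) and Tlr4 by 0.05.

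**Figure D3:**
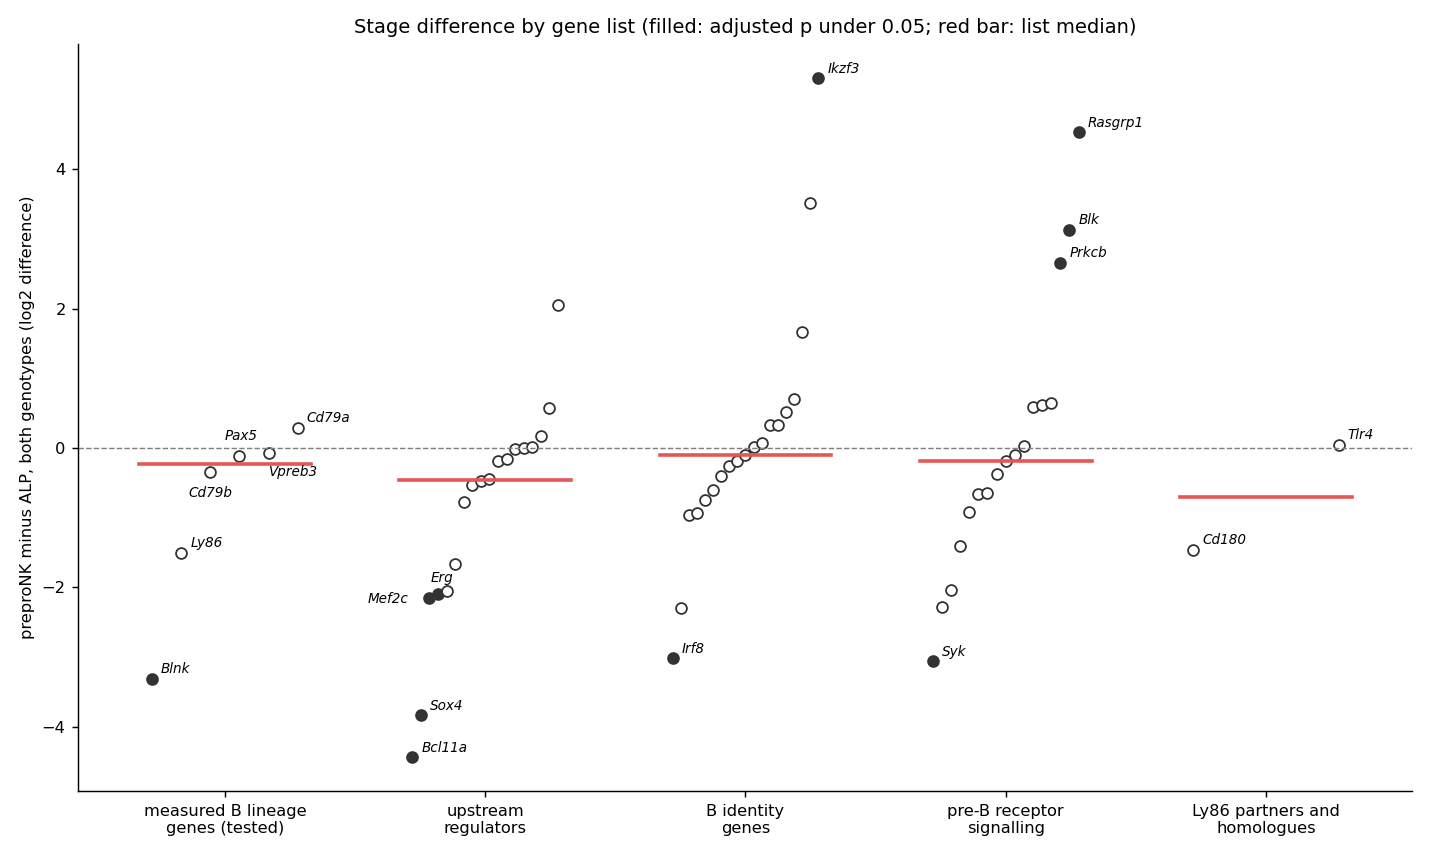
Log2 difference of preproNK minus ALP over both genotypes for each tested gene of the set and of the lists around it, ordered by value within a list; filled circles have an adjusted p under 0.05, red bars are list medians and the dashed line is 0. Blnk at -3.31 is the filled member, with Bcl11a, Sox4, Mef2c and Erg filled below 0 among the upstream regulators.

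Between KO and WT 0 genes of these lists were called by limma in either population. In KO against WT preproNK the difference of Blk was 2.99 (SE 0.61, adjusted p = 0.39), 2.23 within replicate 1 and 3.75 within replicate 2. The signalling list had a median of 1.05 in this comparison, against 0.30 for all tested genes. The T cell markers, with their median of 2.76, had mean levels of 1.56 and 2.84 in WT preproNK and of 4.54 to 4.92 in KO preproNK. Blk, Rasgrp1 and Prkcb are also known from T cells or other lymphocytes, and the part of these markers in the list's difference was not tested.

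Markers of other cell types were read beside the fall of Blnk. Over both genotypes 1.09% of all tested genes fell and 1.18% rose. Of the lymphoid progenitor markers 5 of 9 tested fell over both genotypes, their mean level being 2.46 to 3.59 on the ALP arrays and 0 to 0.52 on the preproNK arrays. Of plasmacytoid dendritic cell markers 3 of 7 fell, from means of 2.33 to 3.03 to means of 1.20 to 2.07, and Irf8 is in that list too. The part of either list in the Blnk difference was not tested. Of 8 myeloid markers 0 were called by limma. The mature B cell markers Ms4a1 and Cd22 were below the median on all 8 arrays. Ighm was above the median on the narrow-range arrays WT ALP replicate 2 (0.21) and WT preproNK replicate 2 (1.81), and below it on the rest. Fcer2a and Cd83 were above the median on some preproNK arrays, at most by 0.26 and 0.34. Cd74, which other antigen-presenting cells express too, was above it on all 8 (1.37 to 4.09), and the mean of the 7 measured mature B markers lay between -0.31 and 0.45 on every array, with 0 of 4 tested called by limma. Of NK markers 9 of 9 tested had a difference above 0 and 3 rose, and 9 of 10 measured were above the median on both KO preproNK arrays. The exception there was Ncr1, a defining NK receptor, which was below the median in every group. All 8 tested T cell markers had a difference above 0, and 6 rose. Some markers were under the median on every array of 1 population, such as Cd34 and Rag2 in preproNK and Cd3e and Tbx21 in ALP. They passed the filter through the other population, so that a difference was built into their being tested.

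The genes most like the members over the 8 arrays were found by Pearson's r, as a description without a test, since arrays of a group and of a date share their source. Nearest to Blnk were Cd34, a surface protein of haematopoietic progenitors (r = 0.996), and Cnn3, an actin-binding calponin (r = 0.995). Cd34 had levels of 3.04 to 4.62 on the ALP arrays and of -1.38 to -1 on the preproNK arrays, and like Blnk it was lowest among ALP arrays on WT ALP replicate 2. Blnk and Cd34 were both under the floor on every preproNK array, where levels have no order. Nearest to Ly86 were Litaf (r = 0.984) and S1pr3, a sphingosine phosphate receptor (r = 0.983). Nearest to Cd79b were Atp8b4 (r = 0.985) and Txndc11 (r = 0.982), which were also lowest on WT preproNK replicate 2.

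Nearest to the mean profile of the 6 tested members were C130050O18Rik (r = 0.987), Depp1 (r = 0.977), Spi1, a factor that acts with Ebf1 in early B cells (r = 0.977), Enkd1 (r = 0.976) and Lyl1 (r = 0.974). The members were centred but not scaled for this mean, so Blnk and Ly86, with the widest ranges, weigh most in it. For Cd79a, Cd79b and Vpreb3, r with Blnk was -0.338, 0.303 and 0.0554, so the profile is not one that all members share. Spi1 had levels of 2.92 to 3.63 on the ALP arrays and of 1.10 to 2.33 on the preproNK arrays. Nearest to Pax5 were 4933404O12Rik and Aldh1a3, to Cd79a Galr1 and 4933433G08Rik, and to Vpreb3 St8sia5 and Ncam1. All of these, like Pax5, Cd79a and Vpreb3, were highest on WT preproNK replicate 2.

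Among the members, r between Blnk and Ly86 over the 8 arrays was 0.892. Blnk was under the floor on every preproNK array, and Ly86 on replicate 1 of both preproNK groups. That value thus holds the gap between the populations, and no order among the dim arrays is read from it. For Pax5, r was 0.867 with Vpreb3 and 0.855 with Cd79a. Pax5 was above the floor on the 2 narrow-range WT arrays alone, and levels under it have no order. No likeness is therefore read from these values of Pax5. For the signalling chains Cd79a and Cd79b r was -0.722. That value leans on the narrow-range WT preproNK replicate 2 array, where Cd79a was highest (1.61) and Cd79b lowest (0.68). It is not read as an opposite course of these genes.

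**Figure D4:**
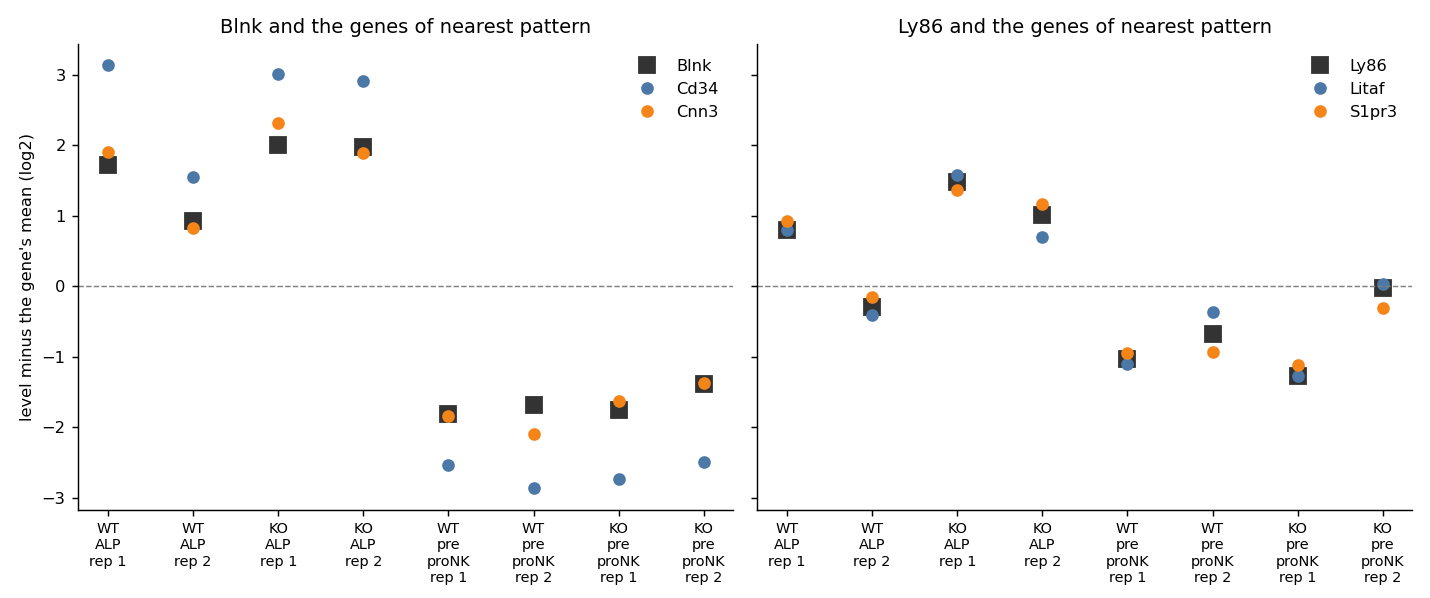
Levels (log2) minus each gene's own mean over the 8 arrays, for Blnk on the left and Ly86 on the right, as squares, with the 2 genes most like each, as circles. Blnk, Cd34 and Cnn3 are above 0 on the 4 ALP arrays and below it on the 4 preproNK arrays, while Ly86, Litaf and S1pr3 are below 0 on WT ALP replicate 2.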

How the data were processed

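RNA was extracted with magnetic beads, amplified over 23 cycles and biotin labelled, per the labels' protocols. The deposited values are log2 expression per probe set, and the submitters' processing notes name RMA and Partek for them, with no versions. RMA equalizes signal distributions, but the deposited arrays still differ in spread. Each array was centred on its median over all probe sets, and a gene is represented by its probe set of 1 symbol with the highest mean, from the platform annotation. Genes above the array median on at least 2 of 8 arrays were tested in one limma fit (lmFit and eBayes, limma 3.58.1, R 4.3.3) with 4 group means and 4 residual degrees of freedom, two-sided. The adjusted p is Benjamini-Hochberg's over the 11583 genes of a comparison, with 6 comparisons. The fit was tested on simulated data. Nothing in the labels says whether replicates came from separate animals, so p-values measure only a spread that may be technical, and the number of arrays limits the precision.

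Replicate numbers mark the processing dates in the series design, so they pair the samples. Across genes, the deviations of replicate 1 from its group mean were compared between groups (r = 0.149 to 0.807). They were alike between any groups other than KO preproNK (r = 0.608 to 0.807). Those of KO preproNK were only weakly like the rest (r = 0.149 to 0.205). The fit with the replicate number as a block was an alternative, beside those on centring, quantile normalization, a floor, the filter, the probe sets and leaving out arrays.

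Members and lists were chosen with earlier results of these data known. The text names all members, Nfil3, called genes of each list (up to 6 by size, or else some of the smallest unadjusted p), and the genes of highest Pearson r. Igll1 and genes without a probe set of their own symbol were not analysed here. Promoter windows came from RefSeq, build GRCm38.p6.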

Additional observations from a re-analysis of the deposited data

Results flagged for a closer look

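The estimates for Cd79b between the populations had opposite signs in WT and KO, and neither passed the test. They were -1.04 in WT (SE 0.43, adjusted p = 0.695 by limma) and 0.35 in KO (SE 0.43, adjusted p = 0.999). Without the narrow-range WT preproNK replicate 2, the WT difference of Cd79b was -0.53. From ALP to preproNK its log2 difference was -0.69 within replicate 1 and -1.39 within replicate 2 in WT, and 0.21 and 0.49 in KO. The difference between these steps was 1.39 (SE 0.61), with an unadjusted p of 0.0546 and an adjusted p of 1 in limma's fit across all tested genes, so it did not pass the test. Leaving out 1 array at a time gave 0.88 to 1.91 for this difference, with adjusted p-values from 0.121 to 1.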

How the results depend on the processing

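Over the 16 alternatives, 522 of 570 member values kept their direction and side of the threshold, 36 changed sign, 7 newly passed and 5 no longer did, and no called value changed sign. Much of this was fixed in advance. The block, the filters, the mean of probe sets and leaving out an array outside the comparison cannot change a tested member's estimate. They can change only its p-value. With the replicate number as a block, Blnk was -3.31 over both genotypes (adjusted p = 0.003 by limma) and no member's call changed. The count of called genes moved from 263 to 646 over both genotypes, from 116 to 292 in KO and from 3 to 13 in WT.

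In the stage difference within WT, 1 member (Blnk) was called after quantile normalization, where 0.604% of genes were, and 1 without both WT arrays numbered 2, where 2.39% were. Without those arrays 2 members, Blnk and Ly86, were called in KO, where 7.72% of tested genes were, and 2 over both genotypes, where 9.91% were. Leaving out 1 array at a time, 0 to 1 members were called for KO minus WT in preproNK (0 to 22.8% of genes) and for the stage difference in WT (0 to 6.46%), in KO (0 to 3.51%) and over both genotypes (0.112 to 8.17%).

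Of the 36 changes of sign 14 were of Vpreb3, 11 of Cd79a, 9 of Pax5, 1 of Blnk and 1 of Ly86. Without both WT arrays numbered 2, KO minus WT turned to 0.16 for Pax5 and 0.25 for Cd79a in ALP and to 0.31 for Cd79a in preproNK, the stage difference of Pax5 in WT to -0.08, and the interaction to 0.06 for Cd79a and 0.18 for Vpreb3. The stage difference of Vpreb3 turned to 0.08 in WT with the values as deposited, to 0.27 in WT and 0.05 over both genotypes after quantile normalization, and that of Pax5 over both genotypes to 0.09 with the floor. The cause was not tested.

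With 1 array left out, KO minus WT in ALP ran from -0.57 to 0.16 for Pax5 and from -0.44 to 0.25 for Cd79a. In preproNK it ran from -1.15 to 0.31 for Cd79a, from 0 to 0.36 for Blnk and from -0.42 to 0.83 for Ly86. The stage difference in WT ran from -0.44 to 0.73 for Pax5, from -0.28 to 1.18 for Cd79a and from -0.34 to 0.31 for Vpreb3, and in KO from -0.14 to 0.40 for Cd79a and from -0.35 to 0.10 for Vpreb3. Over both genotypes it ran from -0.41 to 0.17 for Pax5, from -0.08 to 0.65 for Cd79a and from -0.23 to 0.09 for Vpreb3. The interaction ran from -1.11 to 0.06 for Pax5, from -1.05 to 0.41 for Cd79a and from -0.43 to 0.22 for Vpreb3.

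With 2 arrays a group, and no detection calls, differences among Ebf1, Pax5 and Pou2af1 at or under the array median could not be resolved.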
